A study of Mus musculus with 6 samples.

Results

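The comparison described here set mesoderm progenitor cells given BMP4 together with FGF4 for 11 h against the same kind of cells left untreated for 96 h. It used 2 of the 6 libraries of the study, chosen by their labels, with 1 library on each side. The cells came from mouse embryos of the C57BL/6 strain and grew in DMEM with 10% fetal bovine serum on feeder cells, which were mouse embryonic fibroblasts of the same strain stopped from dividing with mitomycin C. Both groups therefore shared serum and feeder layer. The untreated library was taken at 96 h. Recombinant human BMP4 and FGF4 are described as added at 96 h, which puts the treated library at 107 h in culture. No untreated library of 107 h belongs to the design. Treatment and 11 h of further culture cannot be told apart. The library given BMP4 alone for 11 h was also compared with the 96 h library. That second comparison shares its control with the first, so the values of both are given side by side and nothing is drawn from their likeness. Feeder cells can contribute RNA to each library grown on them.

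BMP4 and FGF4 are secreted ligands with separate receptors. BMP4 binds paired serine/threonine kinase receptors that phosphorylate SMAD proteins, which then switch on inhibitors of differentiation (Id genes), Msx genes and the inhibitory Smad7. FGF4 binds receptor tyrosine kinases that activate the RAS and ERK cascade, which induces its own brakes, the Sprouty (Spry) and dual-specificity phosphatase (Dusp) genes, and ETS factors such as Etv4 and Etv5. In the tailbud, FGF and WNT signals keep progenitors undifferentiated, and T, Tbx6 and Msgn1 guide their passage into presomitic mesoderm. Immediate early genes such as Fos and Egr1 are transcribed within minutes of growth factor, serum or stress signals, without need of new protein.

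Total counts were 206470866 with BMP4 and FGF4 and 272743104 at 96 h, and the other 4 libraries held between 179196459 and 222676298. In the BMP4 and FGF4 library 3 counts corresponded to 0.0145 CPM, the count scaled to library size. Levels below are CPM with TMM factors, which correct for differences in library composition. The columns of the 4 factor-treated libraries were out of register with the gene names and were placed on them again. This gave 17293 genes placed in all 4 columns, of which 14102 reached 1 CPM in at least 1 library and were analysed. A gene was counted as different where log2(CPM + 0.5) differed by at least 1 (2-fold) and the exact 95% counting interval (Clopper-Pearson) of the plain ratio excluded 1. With 1 library a side there is no replicate and no test. The intervals cover counting error only. Folds printed beside levels are plain ratios without the 0.5 CPM. At low levels they exceed the counted measure, so some plain ratios above 2 were not counted.

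The cell type label was checked on marker genes in the same libraries. The 6 markers of mesoderm progenitors (T, Tbx6, Msgn1, Cdx2, Cdx4, Dll1) summed to 33.4 CPM after 96 h and 58.6 CPM with BMP4 and FGF4, and 6 of 6 were higher in the treated library. The same sum was 384 CPM at 0 h and 200.1 CPM with BMP4 alone at 11 h. That 11 h library, whose factor is also described as added at 96 h, thus lay above the 96 h sum. Whether culture times differ from those described was not tested. Markers of other cells were present on both sides, with no marker at 0 in either library: 7 fibroblast markers summed to 695 and 988 CPM, 5 red blood cell markers to 993 and 788 CPM, and 5 endothelial markers to 85.4 and 122 CPM, at 96 h and with BMP4 and FGF4. The fibroblast marker Pdgfra was lower instead (95.5 and 88.6 CPM) and stood at 86.8 CPM at 0 h. Cardiac markers summed to 53.4 and 31.8 CPM, and neural markers (Pax6, Sox1, Tubb3) to 45.2 and 39.7 CPM. Both libraries of 5 h, labelled as taken after 96 h of culture, were closer to the 0 h library in these sums, with mesoderm sums of 357 and 351 CPM and red blood cell sums of 12.7 and 62.7 CPM, against 8.54 CPM at 0 h. They enter no ratio below and are given only as levels.

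**Figure D1:**
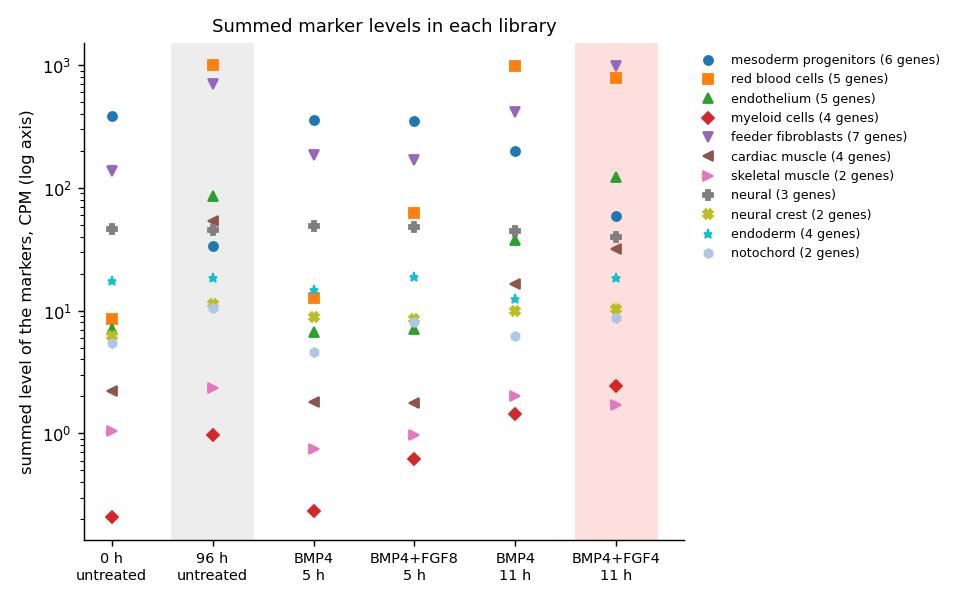
Summed level of marker genes (CPM, log axis) in each of the 6 libraries, by cell type, 1 point per library. The columns shaded grey (96 h untreated) and pink (BMP4 with FGF4, 11 h) are the 2 compared: fibroblast and endothelial sums were higher in the second, red blood cell and cardiac sums lower, and the mesoderm sum of 58.6 CPM lay far below the 384 CPM of 0 h.

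Of the 14102 genes, 191 (1.35%) were at least 2-fold higher with BMP4 and FGF4 than at 96 h, and 15 (0.106%) were at least 2-fold lower. The counting interval removed no gene from either count, so the fold alone set them. The median log2 ratio over all genes was -0.03, and 94.4% of genes lay within 1.5-fold. Of the higher genes 37 were at least 4-fold higher, and of the lower genes 3 were at least 4-fold lower. BMP4 alone at 11 h gave 329 genes (2.33%) above and 45 (0.319%) below 96 h by the same measure.

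**Figure D2:**
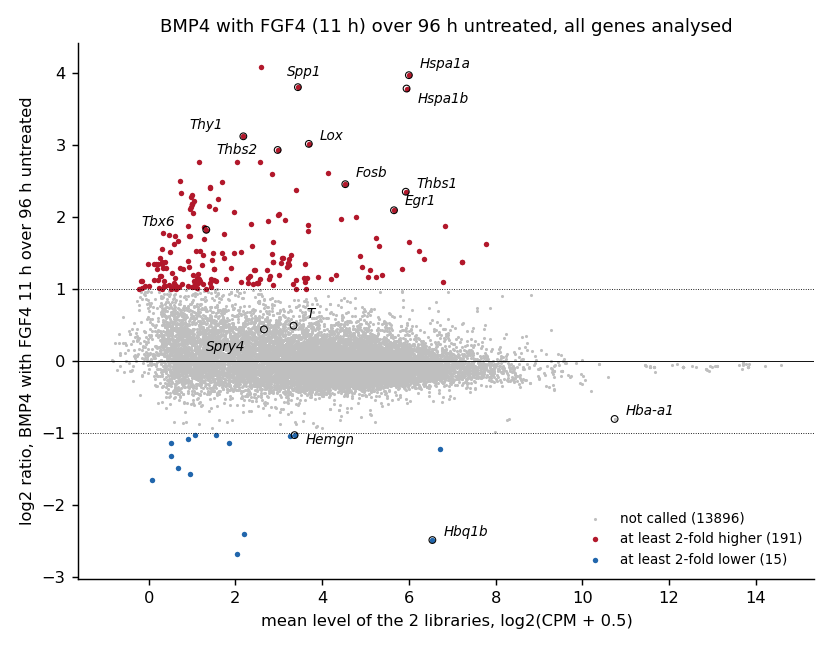
Log2 ratio of BMP4 with FGF4 (11 h) over 96 h untreated against the mean level of both libraries, log2(CPM + 0.5), 1 point per gene, with 191 genes at least 2-fold higher in red and 15 at least 2-fold lower in blue (dotted lines mark 2-fold). Hspa1a and Hspa1b reach log2 ratios of 3.98 and 3.79, and T and Spry4 lie inside the 2-fold band.

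Hspa1a and Hspa1b, which encode the stress-inducible HSP70 chaperone, had log2 ratios of 3.98 and 3.79. They are neighbours on mouse chromosome 17 (Hspa1a from 34969359 to 34972156, Hspa1b from 34956429 to 34959238, GRCm38.p6) and near-identical copies, so that reads may be shared between them. The 250 bases before the start of each gene, from RefSeq on GRCm38.p6 and both on the minus strand, are shown because they differ at only 3 positions. These are C44T, T47C and T249G, counted from 1 at the 5′ end of the stretch, with the Hspa1a base first. Capitals mark the only pair of heat shock units facing each other (TTCNNGAA or GAANNTTC, a palindrome searched so on both strands), which begins 104 bases before the start in each.
Hspa1a (chr17:34972157-34972406): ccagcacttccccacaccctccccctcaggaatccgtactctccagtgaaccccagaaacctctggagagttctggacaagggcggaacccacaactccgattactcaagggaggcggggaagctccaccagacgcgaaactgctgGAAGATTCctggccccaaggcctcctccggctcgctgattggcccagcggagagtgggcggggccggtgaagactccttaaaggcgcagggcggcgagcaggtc
Hspa1b (chr17:34959239-34959488): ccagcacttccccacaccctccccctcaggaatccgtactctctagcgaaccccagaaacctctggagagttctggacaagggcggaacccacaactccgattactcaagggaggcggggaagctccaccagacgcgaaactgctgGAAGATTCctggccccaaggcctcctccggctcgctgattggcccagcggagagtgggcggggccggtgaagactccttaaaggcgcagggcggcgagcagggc
A pair of this kind is found in 12.8% of the 32851 mouse promoter stretches of this length in the same table. A run of 3 such units (TTCNNGAANNTTC or GAANNTTCNNGAA) is found in 0.466% of them and in neither copy here. A match describes the letters and says nothing of binding.

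Hspa1a stood at 7.16 CPM after 96 h and 119.9 CPM with BMP4 and FGF4, a ratio of 16.8 (counting interval 16.0 to 17.6). Its other levels were 1.66 CPM at 0 h, 9.26 CPM with BMP4 at 5 h, 3.26 CPM with BMP4 and FGF8 at 5 h and 44.0 CPM with BMP4 alone at 11 h. The treated library was thus the highest of the 6 and BMP4 alone at 11 h the second. Hspa1b followed the same order, with 7.82 CPM at 96 h, 114.6 CPM with BMP4 and FGF4 (14.7-fold) and 41.3 CPM with BMP4 alone at 11 h.

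Most other chaperone genes lay near their 96 h levels. A list of 22 heat shock and chaperone genes was put together after the values of Hspa1a were seen. Its median log2 ratio was -0.04, beside -0.03 over all genes. In it 5 of 22 were at least 2-fold higher and none lower, beside 1.35% higher over all genes. Besides both HSP70 copies these were their neighbour Hspa1l (2.64 to 6.16 CPM), the small heat shock protein gene Hspb1 (1.65 to 4.80 CPM) and Cryab, which encodes the small chaperone alpha-B crystallin (4.13 to 12.1 CPM). Cryab was at 3.06 CPM with BMP4 alone at 11 h. The classic heat-inducible partners of HSP70 were slightly lower: Dnajb1, its co-chaperone, had a log2 ratio of -0.27 (38.4 and 31.7 CPM), Hsph1, an HSP70 exchange factor, one of -0.09 (170.8 and 160.7 CPM), and Hsp90aa1, the inducible HSP90, one of -0.17 (674 and 598 CPM). The constitutive HSP70 gene Hspa8 was at 1113 and 966 CPM.

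Immediate early genes were the list with the highest median. Of 24 members, 19 were analysed, 13 of 19 were at least 2-fold higher and none lower, beside 1.35% higher over all genes, and the median log2 ratio was 1.66. All 19 had ratios above 0, from 0.59 (Ier2) to 3.98 (Hspa1a). Both HSP70 copies, Hspa1a and Hspa1b, are members of this list too. They are counted in the 13 here and again in the chaperone list. With BMP4 alone at 11 h, 11 of 19 were at least 2-fold higher, beside 2.33% over all genes, and the median was 1.19. The remaining 5 members (Egr2, Egr3, Nr4a1, Nr4a2 and Nr4a3) could not be placed securely and were not analysed here.

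Fosb and Fos encode AP-1 subunits. Fosb was at 6.63 CPM after 96 h and 38.7 CPM with BMP4 and FGF4 (5.85-fold, counting interval 5.55 to 6.16). At 0 h it was at 3.16 CPM, and it reached 20.5 and 19.2 CPM at 5 h with BMP4 and with BMP4 and FGF8, and 16.7 CPM at 11 h with BMP4 alone. Fos (chromosome 12, 85473890 to 85477274) was at 17.2 CPM after 96 h and 57.4 CPM with BMP4 and FGF4, with 11.7 CPM at 0 h and between 35.7 and 40.1 CPM in the other 3 factor libraries. Both genes were thus higher in each library given a factor than in either untreated one, and highest with BMP4 and FGF4. Egr1, a zinc finger factor that ERK signalling induces, showed the same order, with 18.6 CPM at 96 h, 81.4 CPM with BMP4 and FGF4 and between 41.1 and 48.7 CPM in the other 3.

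Junb, another AP-1 subunit, stood at 2.89 CPM after 96 h and 17.2 CPM with BMP4 and FGF4 (5.96-fold, 5.51 to 6.46), with 14.7 CPM for BMP4 alone at 11 h but at most 5.76 CPM at 5 h. Klf4, a Krüppel-like factor, was at 2.58 and 12.1 CPM, with 17.1 CPM for BMP4 alone at 11 h and 4.30 and 3.76 CPM at 5 h. Atf3, a stress-induced factor, was at 5.19 and 19.4 CPM, with 17.5 CPM for BMP4 alone at 11 h and 2.50 and 2.15 CPM at 5 h. Both 11 h libraries were thus above both 5 h libraries for these 3 genes. The 5 h libraries were also those whose marker sums lay near 0 h, so time and culture state cannot be told apart here. Jun (33.2 to 81.3 CPM), Fosl2 (3.10 to 13.5 CPM), Maff (2.99 to 10.6 CPM), Klf6 (22.8 to 51.8 CPM) and the mRNA-destabilizing protein gene Zfp36 (3.56 to 10.0 CPM) complete the 13. These 5, with Fos and Atf3, were named for the count after their values were seen.

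**Figure D3:**
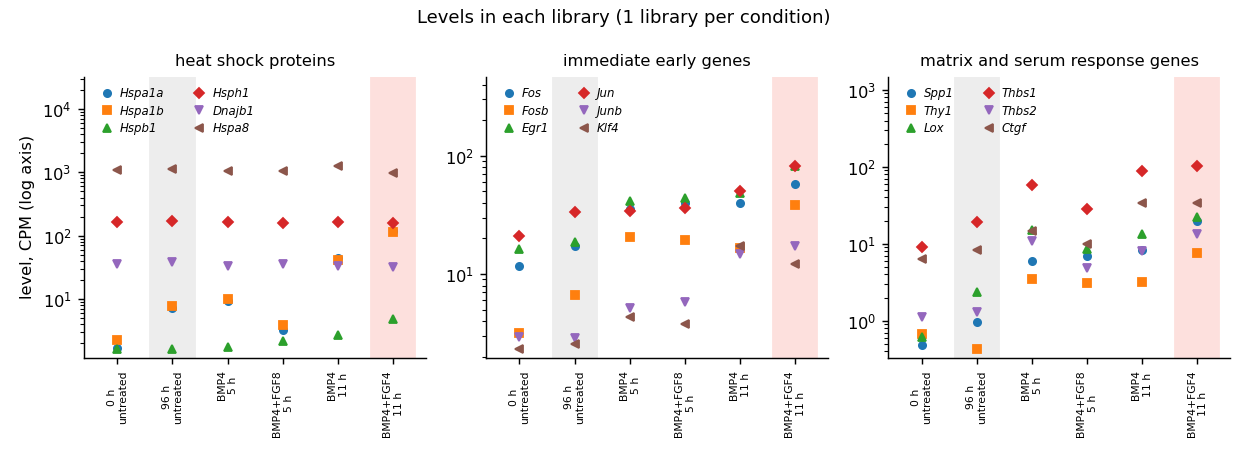
Levels (CPM, log axis) of 18 heat shock, immediate early, matrix and serum response genes in each library, 1 point per gene and library, with the 96 h library shaded grey and BMP4 with FGF4 shaded pink. Hspa1a reaches 119.9 CPM on the right while Hsph1 and Hspa8 stay level, and Thy1, Lox and Thbs2 are low in both untreated libraries and higher in all 4 factor libraries.

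Spp1 (chromosome 5, 104435111 to 104441053), which encodes the secreted phosphoprotein osteopontin, was at 0.948 CPM after 96 h and 19.8 CPM with BMP4 and FGF4, a ratio of 20.9 (18.4 to 23.8). It was at 0.483 CPM at 0 h, 5.94 and 6.96 CPM in the 5 h libraries and 8.36 CPM with BMP4 alone at 11 h. Lox, the enzyme that crosslinks collagen and elastin, was at 2.34 CPM and 22.5 CPM (9.64-fold), and the matricellular gene Thbs2 at 1.32 and 13.4 CPM (10.2-fold). Thy1 (chromosome 9, 44043384 to 44048579), a surface glycoprotein of fibroblasts and T cells, was at 0.434 CPM and 7.66 CPM (17.6-fold, 14.6 to 21.5), with 0.681 CPM at 0 h and between 3.07 and 3.48 CPM in the other 3 factor libraries.

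Of 17 TGF-beta and serum response genes, 5 were at least 2-fold higher and none lower, beside 1.35% higher over all genes (median log2 ratio 0.55). Thbs1, which encodes a matricellular thrombospondin, was at 19.4 CPM after 96 h and 101.5 CPM with BMP4 and FGF4 (5.23-fold). The YAP target genes Ctgf and Cyr61 were at 8.36 and 34.3 CPM and at 38.4 and 112 CPM, and smooth muscle gamma-actin, Actg2, at 0.956 and 3.65 CPM. With BMP4 alone at 11 h, Thbs1, Ctgf and Cyr61 were at 89.3, 34.4 and 98.3 CPM, and 4 of 17 were at least 2-fold higher, beside 2.33% over all genes (median 0.08). The ratio of Actg2 is below 2-fold with a pseudocount of 2 CPM.

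Of 17 feeder fibroblast genes 2 were at least 2-fold higher, beside 1.35% of all genes, with a median of 0.43. These were Thy1 and the fibulin gene Fbln2 (15.1 to 42.4 CPM). The fibrillar collagen genes Col1a1 (196 to 367 CPM, log2 ratio 0.90), Col1a2 (145.5 to 236 CPM, 0.70) and Col3a1 (260 to 325 CPM, 0.32) stayed under 2-fold, as did fibronectin, Fn1 (314 to 594 CPM, 0.92), and lumican, Lum (31.2 to 45.5 CPM, 0.54). In the BMP4 11 h library Col1a1, Col3a1 and Lum were lower than at 96 h instead, at 109, 147.9 and 13.8 CPM. Of 17 integrin and matrix genes 3 were at least 2-fold higher, beside 1.35% of all genes (median 0.45). These were tenascin C, Tnc (19.1 to 59.0 CPM), perlecan, Hspg2 (69.7 to 149.97 CPM), and elastin, Eln (0.823 to 2.21 CPM). With BMP4 alone Tnc, Hspg2 and Eln were at 16.6, 74.6 and 3.15 CPM. Col12a1, a fibril-associated collagen, was at 4.43 and 29.6 CPM (6.70-fold), and Gas6, a ligand of TAM receptor kinases, at 2.60 and 12.4 CPM (4.74-fold). The summed level of the 7 fibroblast markers was 1.42 times that of 96 h. In bulk RNA more cells of a type and more RNA per cell cannot be told apart, and whether these genes come from the feeder cells was not tested.

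Of 20 p53 target genes, 5 were at least 2-fold higher and none lower, beside 1.35% higher over all genes, with a median of 0.51. Eda2r falls below 2-fold with a pseudocount of 2 CPM. Cdkn1a, the cell cycle inhibitor p21 (chromosome 17, 29090979 to 29100722), was at 4.90 CPM after 96 h and 19.5 CPM with BMP4 and FGF4 (3.98-fold, 3.73 to 4.24), with 25.6 CPM for BMP4 alone at 11 h and between 7.05 and 11.5 CPM in the other libraries. Its neighbouring long noncoding RNA Trp53cor1 was at 0.468 and 4.97 CPM, and at 12.1 CPM with BMP4 alone. Pmaip1, the pro-apoptotic NOXA, was at 1.75 and 5.94 CPM, though 0 h (30.2 CPM) and both 5 h libraries (27.5 and 27.7 CPM) were far higher. Sesn2, a stress-induced inhibitor of mTORC1, was at 7.29 and 16.9 CPM, and the receptor gene Eda2r at 2.91 and 6.70 CPM. Cell cycle genes were slightly lower, with 26 of 29 ratios at or below 0 and a median of -0.23. None was at 2-fold, beside 1.35% higher and 0.106% lower over all genes. The largest difference was that of the mitotic kinase Plk1 (80.7 and 62.5 CPM, -0.37).

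Genes of the FGF and ERK feedback list mostly differed little. Egr1 and Fos, which growth factors also induce, are not in that list and are given above with the immediate early genes. Of 22 FGF and ERK feedback and target genes, 1 was at least 2-fold higher, beside 1.35% of all genes, none lower, and the median log2 ratio was 0.12. The one was Ier3, an ERK-responsive survival gene, at 1.02 CPM after 96 h and 4.65 CPM with BMP4 and FGF4. Among the inhibitors, Spry4 was at 4.86 and 6.78 CPM (log2 ratio 0.44) and Spry2 at 10.6 and 15.3 CPM (0.51). The ERK phosphatase Dusp6 was at 51.9 and 67.2 CPM (0.37) and Dusp4 at 19.7 and 33.4 CPM (0.74). Of the ETS factors, Etv4 was at 8.60 and 9.90 CPM (0.19) and Etv5 at 22.1 and 22.4 CPM (0.02).

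The library given BMP4 alone at 11 h stood above the BMP4 and FGF4 library for most of these. It held 11.8 CPM of Spry4, 21.4 CPM of Etv4, 38.0 CPM of Etv5 and 47.8 CPM of Dusp4. In it 5 of the 22 were at least 2-fold higher than at 96 h, beside 2.33% of all genes, with a median of 0.51. At 0 h Spry4, Etv4 and Etv5 were at 28.7, 38.5 and 63.9 CPM. FGF ligand and receptor genes were less complete. Of 21, 10 were analysed, and none differed by 2-fold, beside 1.35% higher and 0.106% lower over all genes. Fgfr1 was at 79.0 and 85.5 CPM and Fgfr2 at 63.9 and 68.6 CPM. Fgf8 was not placed securely. Fgf17, a ligand of the tailbud, could be placed only when the BMP4 11 h library was added to the reference, a choice made after the data were seen, and was then at 0.495 CPM at 96 h, 1.85 CPM with BMP4 and FGF4, 14.3 CPM with BMP4 alone at 11 h and 39.6 CPM at 0 h.

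BMP target genes were likewise near their 96 h levels. Of 21 analysed, 1 was at least 2-fold higher, beside 1.35% of all genes, and none lower, with a median of 0.05. The one was Smad7, the inhibitory SMAD that TGF-beta as well as BMP signalling induces, at 11.6 CPM at 96 h, 27.5 CPM with BMP4 and FGF4 (2.36-fold, 2.26 to 2.47) and 36.5 CPM with BMP4 alone at 11 h, against 11.8 to 13.4 CPM in the other 3 libraries. Id1, Id2 and Id3, which encode dominant-negative bHLH proteins and are textbook BMP targets, had log2 ratios of 0.20 (27.4 and 31.7 CPM), 0.05 (59.3 and 61.4 CPM) and 0.11 (51.8 and 55.9 CPM). Id4, the weakest of the 4, was at 1.36 and 3.11 CPM (0.96). The plain ratios of Id4 and of Gata2, also in the list, were 2.28 and 2.20. The homeobox genes Msx1 and Msx2 were at 36.3 and 33.7 CPM and at 12.9 and 10.96 CPM. With BMP4 alone at 11 h, Id1, Id2 and Id3 were at 32.7, 76.6 and 67.4 CPM. Of 27 BMP ligand, receptor and antagonist genes 1 was at least 2-fold higher, beside 1.35% of all genes, and the median was 0.23. It was the secreted antagonist Grem1 (2.72 to 7.28 CPM).

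Tailbud genes stayed within 2-fold of their 96 h levels, most of them slightly higher. Of 19 tailbud and axial progenitor genes analysed, none differed by 2-fold, beside 1.35% higher and 0.106% lower over all genes. The median log2 ratio was 0.22, with 15 of 19 above 0, beside a median of -0.03 over all genes. T (chromosome 17, 8434423 to 8442496), the T-box factor of streak and tailbud, was at 7.92 CPM after 96 h and 11.4 CPM with BMP4 and FGF4 (1.44-fold, counting interval 1.35 to 1.52). Its level was 46.1 CPM with BMP4 alone at 11 h, 80.6 and 76.0 CPM at 5 h and 86.2 CPM at 0 h. Of the caudal homeobox genes, which specify posterior identity, Cdx2 was at 4.31 and 5.95 CPM and Cdx4 at 2.70 and 5.35 CPM, and both were higher with BMP4 alone at 11 h (18.8 and 23.6 CPM). Cyp26a1, which degrades retinoic acid in the tailbud, was at 1.77 and 3.12 CPM, and the axial progenitor gene Nkx1-2 at 1.47 and 2.36 CPM.

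Presomitic genes reached 2-fold in 5 of 21 cases, beside 1.35% of all genes, with a median of 0.42. With a pseudocount of 2 CPM the count was 1, Tbx6. Tbx6 (chromosome 7, 126781483 to 126785548), required for presomitic fate, was at 0.606 CPM after 96 h and 3.42 CPM with BMP4 and FGF4 (5.65-fold, 4.75 to 6.76). It remained below the 21.1 CPM of BMP4 alone at 11 h and the 42.2 CPM of 0 h. Msgn1, a bHLH factor that acts with Tbx6, was at 0.156 and 0.849 CPM, against 6.69 CPM with BMP4 alone. The clock gene Hes7 was at 0.308 and 1.26 CPM, the protocadherin gene Pcdh19 at 6.16 and 14.1 CPM, and Cer1, a secreted antagonist of Nodal and BMP signals, at 0.347 and 1.25 CPM. The Notch ligand genes Dll1 (17.7 to 31.7 CPM, log2 ratio 0.82) and Dll3 (3.47 to 7.05 CPM, 0.93) were under 2-fold by the counted measure. The plain ratio of Dll3 was 2.03. With BMP4 alone, 15 of 21 were at least 2-fold above 96 h, beside 2.33% of all genes (median 1.43).

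Posterior Hox genes were within 2-fold of their 96 h levels. Of 10 genes of groups 10 to 13, none differed by 2-fold, beside 1.35% higher and 0.106% lower over all genes. The median was -0.06, with Hoxd11 at 3.94 and 5.99 CPM, Hoxc10 at 11.2 and 12.9 CPM and Hoxa11 at 6.51 and 5.24 CPM. The BMP4 11 h library held 25.8 CPM of Hoxd11 and 50.4 CPM of Hoxc10. In it 8 of 10 were at least 2-fold above 96 h, beside 2.33% of all genes (median 1.46). Set directly against BMP4 alone, the BMP4 and FGF4 library had log2 ratios of -2.02 for Hoxd11, -1.93 for Hoxc10, -1.97 for T, -2.46 for Tbx6 and -3.63 for Pax2. Pax2, a factor of nephric and intermediate mesoderm, was at 0.804 CPM after 96 h and 1.71 CPM with BMP4 and FGF4, against 26.8 CPM with BMP4 alone at 11 h. Of 19 intermediate mesoderm genes none reached 2-fold by the counted measure, beside 1.35% higher and 0.106% lower over all genes (median 0.13). The plain ratios of Pax2 and Lhx1 were 2.13 and 2.07. Osr1, expressed in intermediate and lateral mesoderm, was at 5.70 and 4.21 CPM. FGF4 was absent from the one library and present in the other, but each is a single culture, so the added ligand and the culture cannot be told apart.

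**Figure D4:**
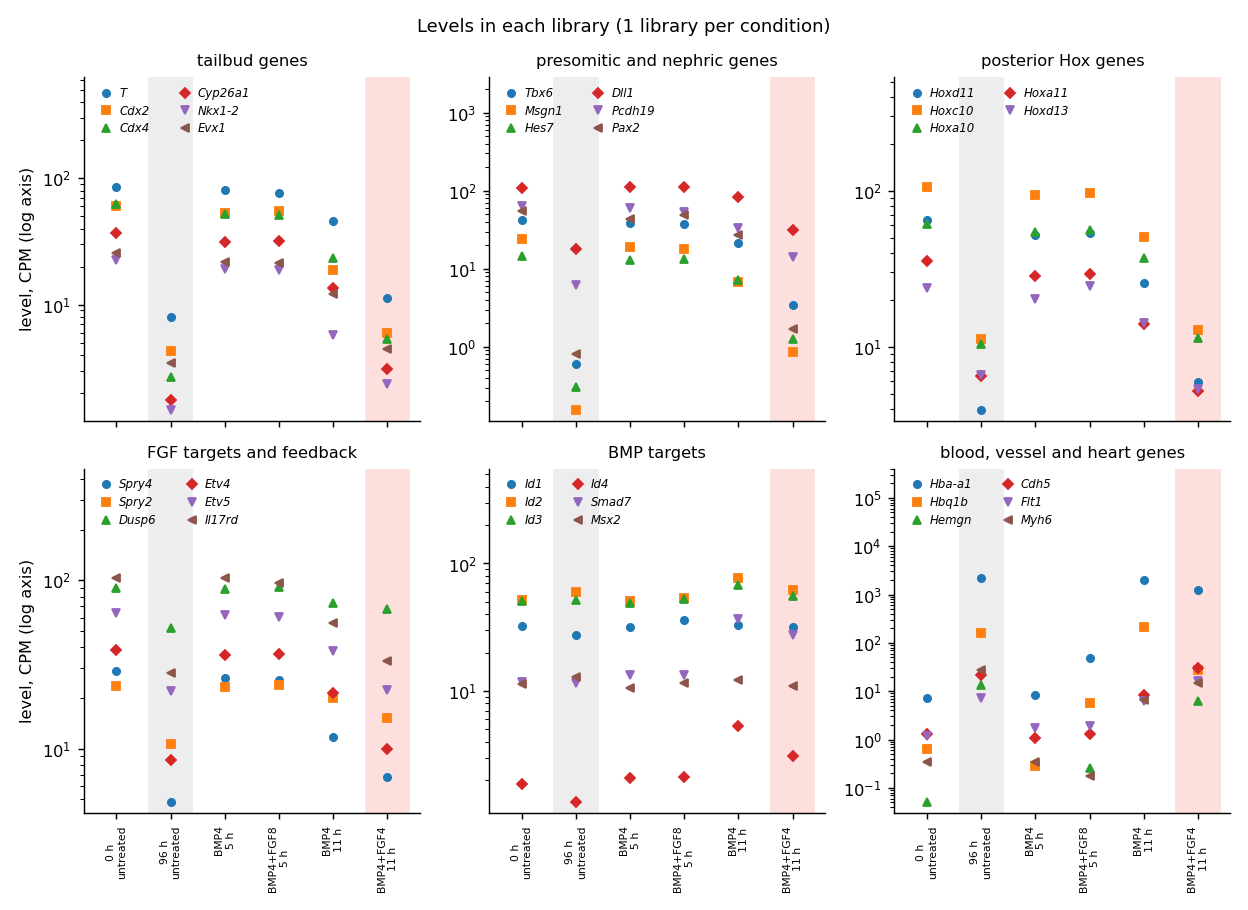
Levels (CPM, log axis) of tailbud, presomitic, nephric, posterior Hox, FGF, BMP, blood, vessel and heart genes in each library, 1 point per gene and library (Hemgn at 0 in BMP4 5 h is not drawn). In the panel of posterior Hox genes the library with BMP4 and FGF4 (pink) lies within 2-fold of 96 h untreated (grey), whereas in that of presomitic genes the Tbx6 point is 5.65-fold above it (3.42 over 0.606 CPM) and below the 21.1 CPM of BMP4 alone at 11 h.

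Red blood cell genes were lower on the treated side. All 21 analysed had log2 ratios below 0, from -2.48 to -0.03, with a median of -0.67, and 2 of 21 were at least 2-fold lower beside 0.106% over all genes. Hbq1b (chromosome 11, 32286964 to 32287912), a theta-type globin with the near-identical copy Hbq1a, was at 157.7 CPM at 96 h, 27.8 CPM with BMP4 and FGF4 and 209 CPM with BMP4 alone. Hbq1a was under 1 CPM in all 6 libraries. Whether reads are shared between the copies was not tested, and the value is uncertain for that reason. Hemgn, a nuclear protein of blood progenitors, was at 13.3 and 6.29 CPM, a log2 ratio of -1.03 that came inside 2-fold with library totals and with a pseudocount of 2 CPM. The adult alpha globin copies Hba-a1 and Hba-a2, which carry almost the same counts, were at 2179 and 1250.3 CPM (-0.80), and the embryonic zeta globin Hba-x at 319 and 251 CPM (-0.35). At 0 h and in the BMP4 5 h library Hba-x was at 1.86 and 3.17 CPM. Tmem56, in none of the lists, was lower by a similar ratio (12.5 to 5.83 CPM) and likewise came inside 2-fold under both settings.

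Heart muscle genes were mostly lower, with 11 of 14 ratios at or below 0 and a median of -0.42. Beside 0.106% of all genes, 1 was at least 2-fold lower, the myosin light chain Myl3 (2.29 to 0.878 CPM). Its log2 ratio of -1.02 became -0.97 with library totals and -0.58 with a pseudocount of 2 CPM, both inside 2-fold. The atrial myosin Myh6 was at 26.8 and 15.1 CPM, and at 6.45 CPM with BMP4 alone. Of the 3 members with ratios above 0, Ttn had the highest (5.36 to 9.87 CPM, log2 ratio 0.82). Endothelial genes were higher in 21 of 22 cases, with a median of 0.45 and, beside 1.35% of all genes, 1 gene at 2-fold. This was Flt1, a VEGF receptor, at 7.21 CPM at 96 h, 15.98 CPM with BMP4 and FGF4 and 6.21 CPM with BMP4 alone at 11 h. Cdh5, the cadherin of endothelial junctions, was at 21.8, 30.0 and 8.26 CPM, and the VEGF receptor gene Kdr at 27.4, 40.3 and 12.99 CPM. For these vessel genes BMP4 alone lay below 96 h and BMP4 with FGF4 above it. Of 7 myeloid genes analysed, 2 were at least 2-fold higher, beside 1.35% of all genes. These were the mannose receptor gene Mrc1 (0.175 to 2.79 CPM) and the integrin gene Itgam (0.263 to 1.37 CPM). Mrc1 reached 1 CPM only in the BMP4 and FGF4 library and so entered the analysis through it. Members under 1 CPM in every library were left out, so the count is not read as a result. Together 4 myeloid markers summed to 0.967 and 2.45 CPM. Stab2, a scavenger receptor of sinusoidal endothelium picked after its values were seen, was at 0.548 and 6.66 CPM, and at 1.33 CPM with BMP4 alone.

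The lateral plate genes Hand1 and Foxf1 were at 32.6 and 28.4 CPM and at 18.2 and 16.9 CPM. In their list of 21 no gene was at 2-fold, beside 1.35% higher and 0.106% lower over all genes (median -0.08). None of the genes of the trunk and anterior Hox, somite, sclerotome, skeletal muscle, neural crest, endoderm and notochord, EMT, WNT, cholesterol synthesis or interferon lists reached 2-fold, with medians between -0.20 and 0.17. Each of the following lists held 1 gene at least 2-fold higher, beside 1.35% over all genes, which is not read as a result. These were Gad1 (0.278 to 1.07 CPM) of 19 neural genes and Hes7 of 21 Notch genes. Of 14 retinoic acid genes it was Cyp26c1 (0.228 to 1.59 CPM). Of 20 glycolysis and hypoxia genes it was Adm, a vasodilator peptide (0.487 to 1.56 CPM), and of 19 genes in the ATF4 list Sesn2. With a pseudocount of 2 CPM, Gad1, Cyp26c1, Adm, Hes7, Flt1, Itgam, Grem1, Eln, Hspa1l and Hspb1 were under 2-fold. Among 5 sex-linked genes 1 was at least 2-fold higher, beside 1.35% of all genes. This was Xist (82.4 to 215 CPM), the same as its antisense partner Tsix to within 0.1 CPM. Reads of that pair are thus not told apart. The 4 Y-linked genes had log2 ratios between -0.28 and 0.01.

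**Figure D5:**
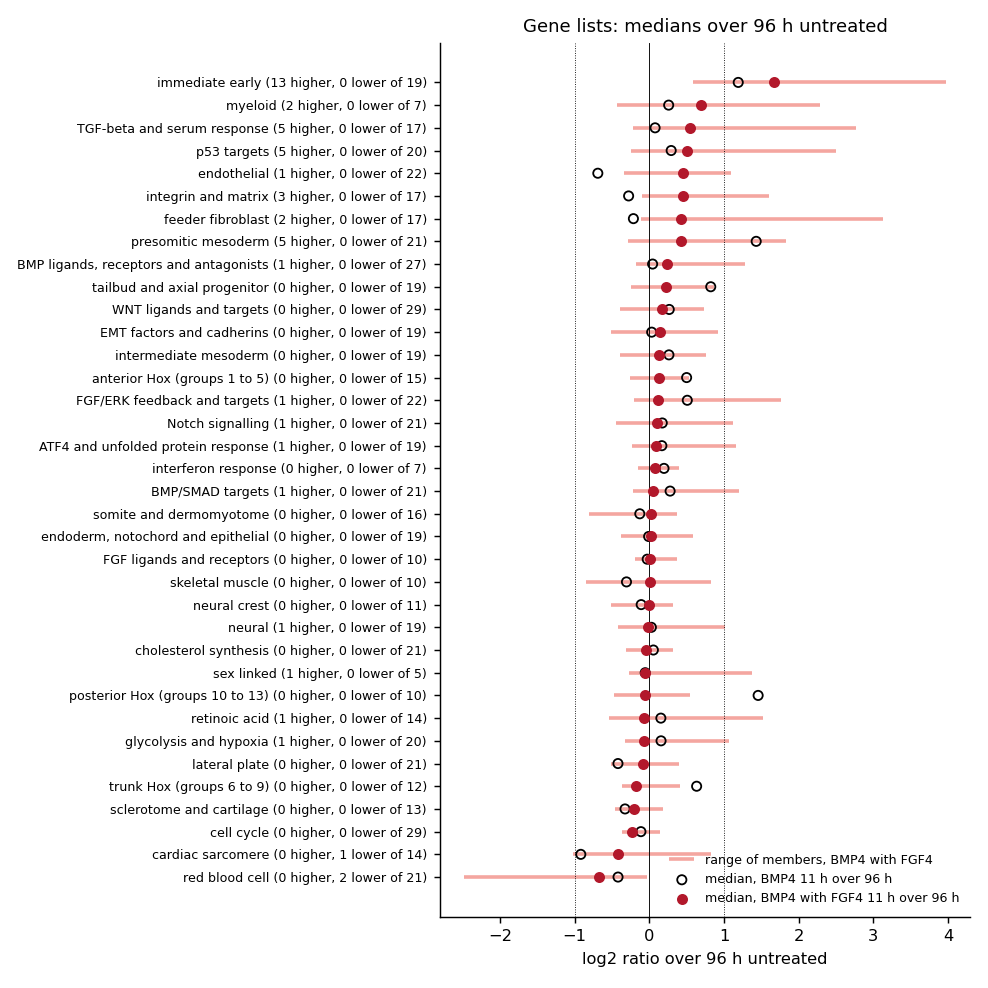
Median log2 ratio over 96 h untreated of each gene list, for BMP4 with FGF4 (filled) and BMP4 alone (open), both at 11 h and sharing the 96 h control, with the range of members for BMP4 with FGF4 as a bar and counts at 2-fold in the labels (no error bars, 1 library each). Immediate early genes have the highest median (1.66) and red blood cell genes the lowest (-0.67), and the posterior Hox and presomitic lists have medians of -0.06 and 0.42 with BMP4 and FGF4.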

How the data were processed

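RNA of 6 libraries, 1 per condition, was measured as raw counts of reads per gene, deposited by the authors in 1 table without normalization. Tools listed, without roles, per the submitters' processing notes, are STAR 2.4.0e, HTSeq, cutadapt and DESeq, and the build is mm10. How reads were counted is not stated there. The table has 19342 names, and the BMP4 with FGF4 column holds 19826 values. Whole rows were sorted by name without regard to case, and 27 date-like names were set aside. Each factor column was placed by an order-preserving alignment to the range of both untreated libraries. For each 5 h column a second pass added the first placement of the other 5 h column to that range. This favours likeness between the levels of the 5 h libraries. In the named rows the counts of both untreated libraries sum to at least 11. The alignment took the same minimum as a rule for each factor column and a chosen partner library. That rule is an assumption, since it could not be seen directly in columns out of register. Genes with an alternative placement less than 5 cost units worse in any column were left out. The placement was tested on simulated data, where kept genes were placed rightly and changed genes were left out more often than others. The simulated column was built from the 96 h library under the same rule, partner and order of names. It could not show errors from a wrong rule, partner or order. The placement favours values near the untreated levels, so counts of differing genes can be too low. Kept genes hold 96.5% of the counts of the treated library. Of 663 list members, 576 were analysed, 40 were not securely placed, 36 were under 1 CPM and 11 have no row of that name.

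Levels are CPM with TMM factors (edgeR 4.0.16, R 4.3.3), and ratios used a pseudocount of 0.5 CPM. No test was made, since each condition has 1 library. Gene lists, comparisons and members were chosen with earlier results of these data known. Named were up to 12 genes higher and 12 lower whose interval lay farthest from 1, averaging 5 CPM or more (no RIKEN, predicted, pseudogene, small RNA, ribosomal or mitochondrial symbols), up to 6 members of each list with the largest ratios at a mean of at least 1 CPM, and fixed marker genes. A gene that the rule names is not reported here. Other genes are said to be chosen after their values were seen or complete a count. All coordinates are of GRCm38.p6 (RefSeq). Alternatives were another scaling (DESeq2 1.42.0 size factors, totals, TMM without red blood cell genes), pseudocounts, filters, placements and a 3-fold limit.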

Additional observations from a re-analysis of the deposited data

Results flagged for a closer look

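In the BMP4 with FGF4 column 701 values matched no gene name and entered no comparison. Their median was 11 counts, and together they made up 0.0103% of the counts of that library. The highest was 1314 counts or 6.36 CPM of the deposited total, and 12 of the 701 reached 1 CPM. Which genes they belong to was not tested.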

How the results depend on the processing

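All differences rest on 1 library a side. The 191 higher genes became 85 with a pseudocount of 2 CPM, 329 with 0.1 CPM, 100 when genes had to reach 5 CPM and 62 at 3-fold. The 15 lower genes became 4 with 2 CPM, 6 with the 5 CPM filter, 9 with a placement margin of 10 and 4 at 3-fold. The other settings gave between 158 and 218 higher and between 11 and 20 lower genes. At 3-fold the presomitic list held 1 higher gene, the TGF-beta and serum response list 3, the p53 list 2 and the integrin and matrix list 1, and the red blood cell list 1 lower gene. The immediate early count was 8 with a margin of 10, and the presomitic count 1 with a pseudocount of 2 CPM. The red blood cell count of lower genes was 1 with library totals, 1 with 2 CPM and 0 with a margin of 10, where fewer genes are kept. The myeloid median turned to -0.43 with the 5 CPM filter, which leaves few of its genes. Placement on both untreated and the BMP4 11 h library, and intervals from halved counts (in case both reads of a pair were counted, as 70.9% even values among 1 to 20 leave possible), were added after the data were seen and gave 195 and 191 higher genes. Scaling by library totals moved the median log2 ratio of all genes from -0.03 to 0.03. Causes beyond how each alternative is built were not tested. No paired analysis was possible because each condition has 1 library.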

Other observations

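Genes outside the lists that were at least 2-fold higher with BMP4 and FGF4, picked after their values were seen, included Ahnak (44.2 to 118.7 CPM), Plec (16.9 to 42.7 CPM), Lmna (3.29 to 10.2 CPM), Ptrf (6.37 to 17.1 CPM), Myof (4.77 to 12.6 CPM) and Emp1 (4.86 to 13.1 CPM). With BMP4 alone at 11 h, Lmna, Ptrf and Emp1 were at 5.59, 7.81 and 6.07 CPM. Of the noncoding transcripts picked in the same way, Malat1 was at 30.5 and 97.2 CPM, Neat1 at 0.453 and 3.76 CPM, and Kcnq1ot1 and Airn at 4.01 and 11.8 CPM and at 24.9 and 57.8 CPM. In the other 3 factor libraries Malat1 was between 72.5 and 75.3 CPM and Neat1 between 1.54 and 2.81 CPM. A few genes were high in both 11 h libraries alone, such as Tktl1, a transketolase-like gene, at 0.225 CPM at 96 h, 2.71 CPM with BMP4 and FGF4, 3.87 CPM with BMP4 alone and between 0.128 and 0.225 CPM elsewhere.

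The row named Mir7-1 stood at 0.171 CPM at 96 h and between 10.9 and 13.3 CPM in the other 5 libraries. Hist1h2af, a histone gene with near-identical copies, stood at 6.65 CPM at 96 h and between 0.244 and 0.612 CPM elsewhere. By contrast Scd4, a fatty acid desaturase gene, was at 0.969 CPM with BMP4 and FGF4 and 1.02 CPM with BMP4 at 5 h, and between 7.29 and 10.3 CPM in the other 4 libraries.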
